A study of Mus musculus with 6 samples.

Results

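Transcripts of 7 genes that encode the MIER, HDAC1/2 and CDYL partners of BAHD1 were examined in the brains of mouse embryos with and without Bahd1. The genes are Mier1, Mier2, Mier3, Hdac1, Hdac2, Cdyl and Cdyl2. They were selected by symbol from a table of 53801 genes, without use of their values, and each symbol matched 1 gene of the table. Earlier results of these data were known when the genes were chosen. Polyadenylated RNA was sequenced from the whole brain of 6 C57BL/6 embryos at stage E16.5, of which 3 were Bahd1-KO (Bahd1-/-, homozygous for the null allele) and 3 were Bahd1-WT (Bahd1+/+). All embryos came from matings of heterozygous parents, so that the Bahd1-KO embryos carried no intact copy of the Bahd1 gene from fertilisation on, and no agent was given. Which embryos shared a litter was not given. The comparison asked whether loss of BAHD1 altered the expression of the genes for its own partners before birth. In whole brain, fewer cells of a type and less RNA per cell cannot be told apart.

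Acetylation of histone tails loosens chromatin, and HDAC1 and HDAC2 are the closely related class I deacetylases that remove it. Neither works alone: each is held by a scaffold protein, which binds the deacetylase and brings it to chromatin. Many of these scaffolds have ELM2 and SANT domains, and the MIER proteins are 1 such family beside the MTA, RCOR, RERE and MIDEAS proteins. BAHD1, which has a BAH domain that binds chromatin, forms a scaffold with MIER. CDYL, a chromodomain protein that reads methylated histone H3 and recruits histone methyltransferases, is found with them. In the mammalian brain HDAC2 is known as the main form of neurons, whereas HDAC1 is prominent in dividing progenitors and glia.

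The 3 Mier genes differ in base composition, a property to which the values below return. A stretch of 60 coding bases that aligns without gaps between them is shown 5′ to 3′ on the coding strand, with capitals marking each G or C at position 3 of a codon, where a change often leaves the amino acid the same. The stretches lie in exon 13 of Mier1 (GRCm38 chr4:103155514-103155573, forward strand), exon 11 of Mier2 (chr10:79542635-79542694, reverse strand) and exon 11 of Mier3 (chr13:111714268-111714327, forward strand).
Mier1: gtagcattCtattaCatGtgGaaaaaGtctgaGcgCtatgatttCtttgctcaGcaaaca
Mier2: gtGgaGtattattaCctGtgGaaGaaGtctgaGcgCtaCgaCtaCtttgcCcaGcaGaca
Mier3: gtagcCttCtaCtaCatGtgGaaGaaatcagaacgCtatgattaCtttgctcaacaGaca
All 3 genes share 43 of these 60 bases, and G or C stands at position 3 in 9, 15 and 10 of the 20 codons of Mier1, Mier2 and Mier3. Over the whole coding sequence, position 3 was G or C in 34.5% of Mier1, 68.1% of Mier2 and 47.6% of Mier3 codons. The longest transcript of Mier2 was 61.0% G and C, more than 97.1% of the protein-coding genes, whereas those of Mier1 (39.1%) and Mier3 (40.9%) stood at percentiles 8.48 and 14.5. The coding sequences of Mier1 and Mier3 were identical at 56.2% of aligned bases, those of Mier1 and Mier2 at 50.2%, and those of Mier2 and Mier3 at 48.4%.

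Hdac1 and Hdac2 are closer relatives, with 75.2% of aligned coding bases identical, and Cdyl and Cdyl2 shared 62.6%. For the deacetylases the question is which reads can be assigned to which gene, and a stretch of 65 bases, the read length given for the single-end run, shows it. A paired-end run with shorter reads is also described in the methods, and which run made the table is not given in the sources used here, so that the counts of 65-base words below may not match the reads. Capitals mark bases that differ from Hdac1. The stretches lie in exon 2 of Hdac1 (chr4:129534627-129534691, reverse strand), in exon 2 of Hdac2 (chr10:36985162-36985226, forward strand) and in Gm10093, a processed pseudogene of Hdac1 (chr17:78491666-78491730, forward strand).
Hdac1: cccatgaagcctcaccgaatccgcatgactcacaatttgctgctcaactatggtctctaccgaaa
Hdac2: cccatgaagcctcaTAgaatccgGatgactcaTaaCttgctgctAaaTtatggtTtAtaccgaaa
Gm10093: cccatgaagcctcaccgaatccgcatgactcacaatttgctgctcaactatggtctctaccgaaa
Hdac2 differed from Hdac1 at 9 of the 65 bases, whereas Gm10093 differed at 0. Along the coding sequence of Hdac1, 1090 of 1385 words of 65 bases (78.7%) occurred word for word in another annotated gene, 1046 of them in Gm10093. Hdac2, Mier1, Mier2 and Cdyl2 had 0 such words, Cdyl had 68 (3.96%) and Mier3 had 27 (1.70%). Gm10093 itself held 5 to 12 counts per embryo, against 1558 to 3471 for Hdac1. The counting options that the authors list (by exon, by gene and by strand) name no setting for reads that align to several places, so the level of Hdac1 is uncertain.

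In units of 1e6 counts, the libraries held 61.7 to 91.8. Bahd1 had 2, 10 and 6 counts in Bahd1-KO embryos 1, 2 and 3, and 1971, 3102 and 3470 in Bahd1-WT embryos 1, 2 and 3, which fits the labels of all 6 embryos. The library of Bahd1-KO embryo 3 stood apart: ribosomal RNA genes took 44.7% of its counts against 0.249 to 0.614% in the others. Of 10 neuronal marker genes, 8 were lowest in this embryo, and their summed level was 2153 against 8062 to 9964 normalised CPM, counts per 1e6 of the library size after scaling. All 6 lung markers were highest there, with a sum of 1424 normalised CPM, against 11.2 in Bahd1-KO embryo 2 and 0.290 to 0.515 in the remaining embryos. All 8 skeletal muscle markers were also highest in Bahd1-KO embryo 3 (83.3 against 2.34 to 11.96), while its connective tissue markers summed to 2062 against 295 to 411. Markers of dividing progenitors summed to 1187 against 556 to 793, although 6 of the 10 were highest in this embryo and 4 were lowest. The neuronal markers that define the labelled tissue were thus low in this library, though none was at 0. Results are therefore given with and without this embryo.

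Of the 7 genes, 0 passed an adjusted p of 0.05 between genotypes in the quasi-likelihood test of edgeR, where 0.00404% of the 24739 genes tested passed, a single gene, Bahd1. Bahd1 itself passed narrowly, at a log2 fold change of -8.40 (SE 0.606, edgeR adjusted p 0.0462), and its call was lost when any embryo but Bahd1-KO embryo 3 was left out, with log2 fold changes of -8.01 to -8.78 and adjusted p of 0.107 to 0.685. All 7 had passed the filter on low counts. At an unadjusted p under 0.05 there were 0 of 7, against 4.67% of all genes, and the genotypes overlapped for every one of the 7, whereas they did not overlap for 6.71% of all genes. DESeq2 also called 0 of the 7, against 0.0334% of the genes it tested, and voom with quality weights called 0, against 0.0243%. At an unadjusted p under 0.05, voom found 1 of the 7, Mier2, against 8.95% of all genes. At that threshold edgeR without Bahd1-KO embryo 2 found 2 of the 7, Mier2 and Cdyl, against 20.2% of 24149 genes. With replicate number as a block and without Bahd1-KO embryo 3, it found 2 of the 7, Mier2 and Cdyl2, against 2171 of 23334 genes. Without Bahd1-KO embryo 3, edgeR again called 0 of 7, against 0.0171% of 23334 genes. Of the 7 genes, 4 were higher and 3 lower in Bahd1-KO. Their median log2 fold change, Bahd1-KO over Bahd1-WT, was 0.20, beside 0.06 over all genes tested. With scaling by total counts in place of TMM factors the median over all genes moved to -0.11, and that of the 7 to 0.003.

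**Figure D1:**
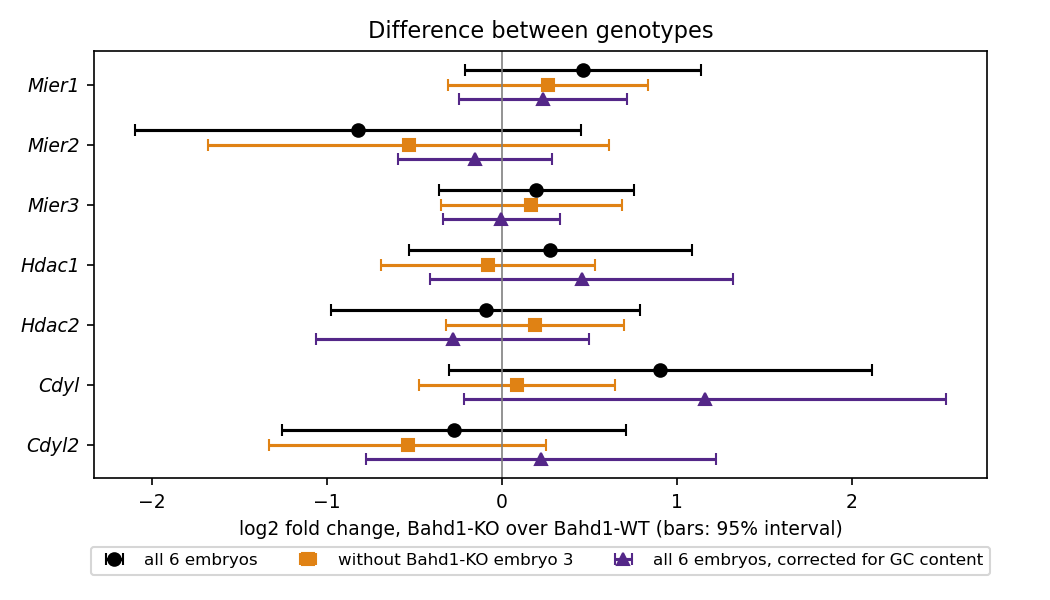
Log2 fold change of each gene, Bahd1-KO over Bahd1-WT, with its 95% interval from edgeR, in all embryos, without Bahd1-KO embryo 3, and after correction of each embryo for GC content. Every interval of the 7 genes spans 0; for Cdyl the estimate in all embryos (0.91) falls to 0.09 without Bahd1-KO embryo 3, and for Mier2 it moves from -0.82 to -0.15 with the GC correction.

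**Figure D2:**
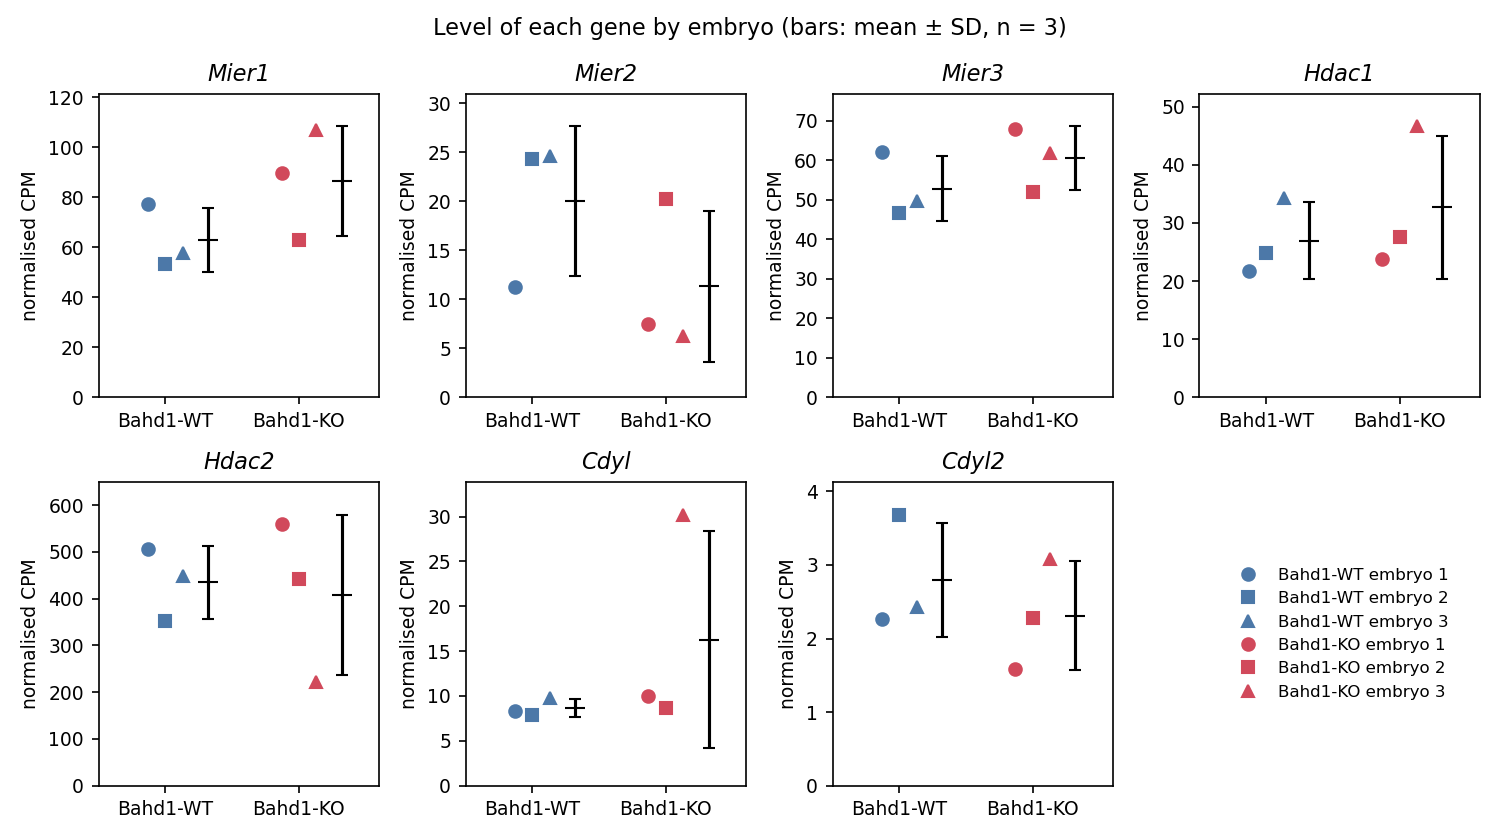
Level of each gene in every embryo, in normalised CPM on a linear axis that starts at 0, with a bar at the mean and SD of each genotype (n = 3). Bahd1-KO embryo 3 is highest for Mier1, Hdac1 and Cdyl and lowest for Mier2 and Hdac2 among all 6 embryos.

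Of the scaffold genes, Mier2 varied most. Mier2 (chromosome 10, 79540245 to 79555199, reverse strand) was at 7.49, 20.2 and 6.28 normalised CPM in Bahd1-KO embryos 1, 2 and 3, and at 11.2, 24.3 and 24.6 in Bahd1-WT embryos 1, 2 and 3. The lowest values were those of Bahd1-KO embryos 1 and 3, but Bahd1-KO embryo 2 lay above Bahd1-WT embryo 1. The means were 11.3 ± 7.71 and 20.04 ± 7.64 (SD, n = 3 each), and the log2 fold change was -0.82 (95% interval -2.10 to 0.45, edgeR adjusted p 0.696). Without Bahd1-KO embryo 3 it was -0.53 (-1.68 to 0.62), and without Bahd1-KO embryo 2 it was -1.58 (edgeR adjusted p 0.236). Over the 6 embryos Mier2 spanned 3.91-fold, and the SD of its log2 level, 0.872, was larger than that of 86.1% of the 9998 protein-coding genes at 10 CPM or more. In the other 5 embryos alone the SD was 0.760, larger than that of 97.1% of these genes, so that the spread of Mier2 did not rest on Bahd1-KO embryo 3.

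Mier1 (chromosome 4, 103114390 to 103165754, forward strand) ran the other way. It was measured at 89.6, 62.9 and 106.7 normalised CPM in the Bahd1-KO embryos, against 77.3, 53.3 and 57.6 in the Bahd1-WT embryos. Bahd1-KO embryos 1 and 3 were the highest of all, and Bahd1-KO embryo 2 lay between Bahd1-WT embryos. The means were 86.4 ± 22.1 and 62.7 ± 12.8, with a log2 fold change of 0.46 (-0.21 to 1.14, edgeR adjusted p 0.696), and of 0.26 (-0.31 to 0.84) without Bahd1-KO embryo 3. An exon of Mier1 overlaps an exon of Wdr78 on the opposite strand. The counting was strand-specific according to the methods, and how far it separated the reads of both genes was not tested.

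Mier3 (chromosome 13, 111680979 to 111718596, forward strand) had the smallest spread of the 7 over all 6 embryos. Embryo by embryo it stood at 68.1, 52.1 and 61.8 normalised CPM in the Bahd1-KO embryos, while the Bahd1-WT embryos had 62.1, 46.7 and 49.7, a span of 1.46-fold. The ranges of both genotypes overlapped, with Bahd1-KO embryo 1 highest and Bahd1-WT embryo 2 lowest. The means were 60.6 ± 8.07 and 52.8 ± 8.19, with a log2 fold change of 0.20 (-0.36 to 0.76, edgeR adjusted p 0.777) and the narrowest interval of the 7 genes. Its SD of log2 levels, 0.215, was above that of 15.8% of the protein-coding genes. Leaving out Bahd1-KO embryo 3, its SD was 0.229 and that of Cdyl was smaller.

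The embryos also differed in how transcripts of high and low GC content were represented. For each embryo, a GC tilt was computed as the median log2 deviation of 724 protein-coding genes above 58% GC minus that of 1353 genes below 42%. The tilt was -1.03, 0.56 and -1.09 in Bahd1-KO embryos 1, 2 and 3, and -0.36, 1.01 and 0.92 in Bahd1-WT embryos 1, 2 and 3. Embryos 1 and 3 of the Bahd1-KO group therefore had the lowest tilt, with Bahd1-WT embryo 1 next. Mier2, the GC-rich gene, followed this order across the embryos apart from an exchange of Bahd1-WT embryos 2 and 3, and Mier1, the GC-poor gene, followed the exact reverse. The median log2 fold change of all protein-coding genes at 10 CPM or more was 0.20 below 42% GC and -0.72 above 58% GC. When each embryo was corrected for GC content by a lowess curve, the log2 fold change of Mier2 was -0.15 (-0.59 to 0.29), that of Mier1 was 0.23 (-0.24 to 0.71) and that of Mier3 was -0.003 (-0.34 to 0.33). With the correction and without Bahd1-KO embryo 3, Mier2 was at -0.11 (-0.46 to 0.24), Mier1 at 0.02 (-0.25 to 0.29) and Mier3 at -0.04 (-0.31 to 0.23). The cause of the tilt was not tested.

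**Figure D3:**
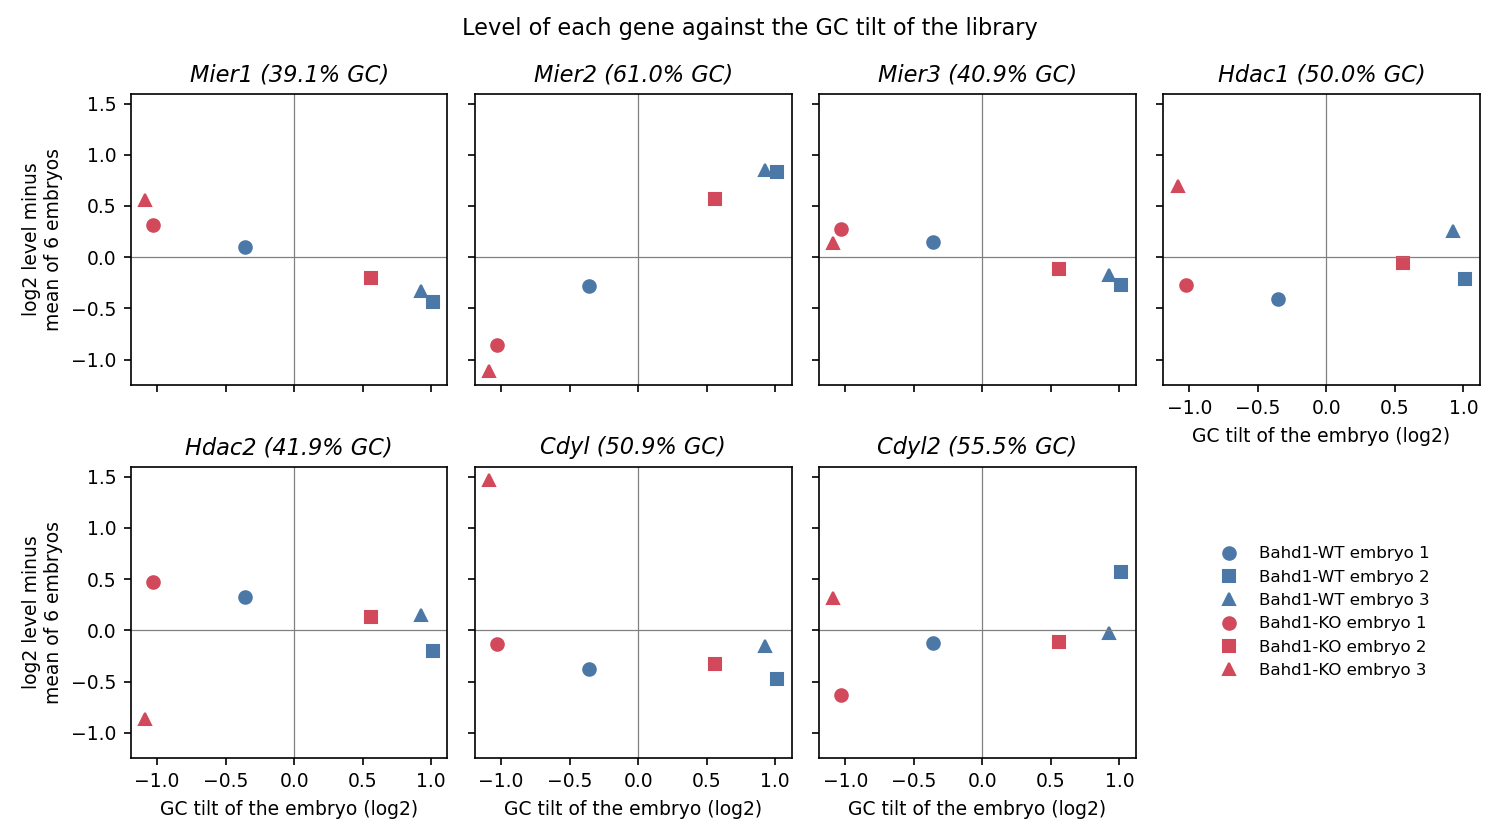
Log2 level of each gene in an embryo relative to its mean over the 6 embryos, against the GC tilt of that embryo (log2, high-GC minus low-GC genes), coloured by genotype. Mier2 (61.0% GC) rises and Mier1 (39.1% GC) falls across embryos from the lowest tilt, -1.09 in Bahd1-KO embryo 3, to the highest, 1.01 in Bahd1-WT embryo 2, while Cdyl (50.9% GC) stands apart in Bahd1-KO embryo 3 alone.

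Both deacetylase genes were measured, and Hdac2 was the most abundant of the 7. Hdac2 (chromosome 10, 36974544 to 37001889, forward strand) was at 560, 443 and 221.5 normalised CPM in Bahd1-KO embryos 1, 2 and 3, and at 506, 351 and 448 in Bahd1-WT embryos 1, 2 and 3. Bahd1-KO embryo 3 was the lowest and Bahd1-KO embryo 1 the highest of all 6. The means were 408 ± 172 and 435 ± 78.002, with a log2 fold change of -0.09 (-0.97 to 0.79, edgeR adjusted p 0.937). Without Bahd1-KO embryo 3 the sign turned, to 0.19 (-0.32 to 0.70), and upper-quartile scaling gave 0.003 in all embryos. With the GC correction it was -0.28 (-1.06 to 0.50).

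Hdac1 (chromosome 4, 129516104 to 129542713, reverse strand) was at 23.8, 27.6 and 46.7 normalised CPM in the Bahd1-KO embryos, while the Bahd1-WT embryos had 21.7, 24.7 and 34.4. Its highest value was in Bahd1-KO embryo 3, the embryo with the lowest Hdac2. The means were 32.7 ± 12.3 and 26.9 ± 6.62, with a log2 fold change of 0.28 (-0.53 to 1.09, edgeR adjusted p 0.784). Without Bahd1-KO embryo 3 it was -0.08 (-0.69 to 0.53), with scaling by total counts 0.003, and with the GC correction 0.46 (-0.41 to 1.32). In that embryo the neuronal markers were at their lowest sum and those of dividing progenitors at their highest sum, with 6 of the 10 progenitor markers highest and 4 lowest, and the part of these differences in the Hdac1 and Hdac2 values was not tested.

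Cdyl and Cdyl2, the chromodomain genes, were expressed at low levels. Cdyl (chromosome 13, 35659833 to 35874063, forward strand) was at 9.95, 8.67 and 30.2 normalised CPM in Bahd1-KO embryos 1, 2 and 3, and at 8.38, 7.86 and 9.80 in Bahd1-WT. A single embryo, Bahd1-KO embryo 3, set the difference, since the 5 others lay within a 1.27-fold span. The means were 16.3 ± 12.1 and 8.68 ± 1.01, and the log2 fold change of 0.91 (-0.30 to 2.12, edgeR adjusted p 0.696), the largest in size among the 7 genes, became 0.09 (-0.47 to 0.65) without that embryo. With the GC correction it was 1.16 (-0.22 to 2.54). Among the 5 other embryos the SD of log2 Cdyl levels, 0.147, was above that of 19.8% of protein-coding genes, against 79.2% with all 6.

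Cdyl2 (chromosome 8, 116574400 to 116732991, reverse strand), the paralogue of Cdyl, was covered thinly, by 104, 192 and 166 reads in Bahd1-KO embryos 1, 2 and 3, and by 217, 325 and 245 reads in Bahd1-WT embryos 1, 2 and 3. These were 1.59, 2.27 and 3.08 against 2.27, 3.69 and 2.43 normalised CPM, with Bahd1-WT embryo 2 highest and Bahd1-KO embryo 1 lowest. The means were 2.31 ± 0.745 and 2.79 ± 0.778, with a log2 fold change of -0.27 (-1.26 to 0.71, edgeR adjusted p 0.829), of -0.54 (-1.33 to 0.26) without Bahd1-KO embryo 3 and of 0.22 (-0.78 to 1.22) after correction for GC content. The direction thus changed with the GC correction in all 6 embryos. With that correction and without Bahd1-KO embryo 3, the log2 fold change of Cdyl2 was -0.24 (-0.80 to 0.32).

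Levels of different genes were compared per kb of annotated exon length, in normalised CPM per kb. Hdac2 stood at 94.2 ± 26.9 (SD over 6 embryos), above 98.9% of the protein-coding genes tested. Mier3 (9.31 ± 1.39), Hdac1 (8.65 ± 2.72), Mier1 (5.96 ± 1.66), Mier2 (3.49 ± 1.86), Cdyl (2.84 ± 1.99) and Cdyl2 (1.06 ± 0.303) followed, at percentiles 71.9 to 29.2. In the Bahd1-WT embryos Bahd1 itself was at 6.44 ± 1.76, between Hdac1 (7.82 ± 1.92) and Mier1 (5.01 ± 1.02). This place rests on the exon length, which is 12513 bases for Mier1 against 4830 in its longest transcript, and 4664 against 4594 for Bahd1. The place of Bahd1 per kb of the longest transcript was not computed. Each of the 6 neighbouring pairs in this order was compared within embryos by an exact two-sided sign-flip permutation test, which cannot give an adjusted p under 0.05 here unless at least 4 of the 6 pairs reach the smallest exact p. Hdac2 exceeded Mier3 by 9.80-fold in 6 of 6 embryos and Cdyl exceeded Cdyl2 by 2.43-fold in 6 of 6, each with the smallest p that the exact test allows and an adjusted p of 0.0938 over the 6 pairs. Mier3 and Hdac1 (4 of 6 embryos, exact p 0.469), Mier1 and Mier2 (4 of 6, exact p 0.219) and Mier2 and Cdyl (4 of 6, exact p 0.625) did not differ beyond their spread, and Hdac1 lay above Mier1 in 5 of 6 (1.44-fold, exact p 0.0938). None of the 6 pairs passed 0.05 after adjustment.

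The order in the middle depended on the length used. Per kb of the longest transcript it ran Hdac2, Mier1, Hdac1, Mier3, Mier2, Cdyl, Cdyl2. On this scale Mier1 lay above Hdac1 in only 2 of 6 embryos (1.06-fold, sign-flip exact p 0.75). Hdac1 lay above Mier3 in 4 of 6 (sign-flip exact p 0.125). A further scale divided the whole level of a gene by the words of 65 bases of its longest transcript found in no other gene. It assumes that reads shared with other genes were not counted, which is not known here. Per 1000 such words, Hdac1 stood second at 33.7 ± 10.6 normalised CPM and Hdac2 first at 132 ± 37.7, a 3.90-fold difference. Hdac2 stayed first and Cdyl2 last on all 3 scales.

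Ratios between paralogues within 1 library do not depend on scaling between libraries, and 4 were compared between genotypes by an exact two-sided permutation test, which cannot give a p below 0.1 with 3 embryos against 3. The ratio of Hdac2 to Hdac1 per kb was 18.1, 12.4 and 3.65 in Bahd1-KO embryos 1, 2 and 3, and 18.0, 10.9 and 10.03 in Bahd1-WT. Bahd1-KO embryo 3 was the lowest and the other 5 lay between 10.03 and 18.1 (log2 difference -0.42, exact p 0.9). Without that embryo the log2 difference turned to 0.26. Hdac1 accordingly made up 21.5% of the summed Hdac1 and Hdac2 level in that embryo and 5.23 to 9.07% in the others. Per 1000 unshared words, a scale that assumes that shared reads were not counted, the ratio ran from 1.32 in the same embryo to 6.53.

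The ratio of Mier2 to Mier1 varied most, from 0.164 in Bahd1-KO embryo 3 to 1.27 in Bahd1-WT embryo 2, a 7.74-fold range. The Bahd1-KO embryos had 0.233, 0.893 and 0.164 and the Bahd1-WT embryos 0.404, 1.27 and 1.19 (log2 difference -1.39, exact p 0.2, adjusted 0.267 over the 4 ratios). The log2 difference was -0.89 without Bahd1-KO embryo 3 and -2.12 without Bahd1-KO embryo 2. Mier2 thus made up between 6.96 and 31.2% of the summed Mier level per kb. Mier2 has 61.0% and Mier1 39.1% GC, and the ratios were not corrected for the GC tilt. With the GC correction, the log2 fold change between genotypes was -0.15 for Mier2 and 0.23 for Mier1. Without Bahd1-KO embryo 3 as well, it was -0.11 for Mier2 and 0.02 for Mier1. The ratio of Mier3 to Mier1, genes of similar GC content, kept within a 1.51-fold range, at 1.56, 1.70 and 1.19 against 1.65, 1.80 and 1.77 (exact p 0.2). Its size depends on the length used, since per kb of the longest transcript Mier1 had the higher mean, 15.4 against 10.7 normalised CPM. Cdyl2 to Cdyl was 0.291, 0.478 and 0.185 against 0.493, 0.854 and 0.451 (log2 difference -0.96, exact p 0.2), with Bahd1-KO embryo 3 lowest, and the difference was -0.63 without it. The genotypes overlapped for all 4 ratios.

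**Figure D4:**
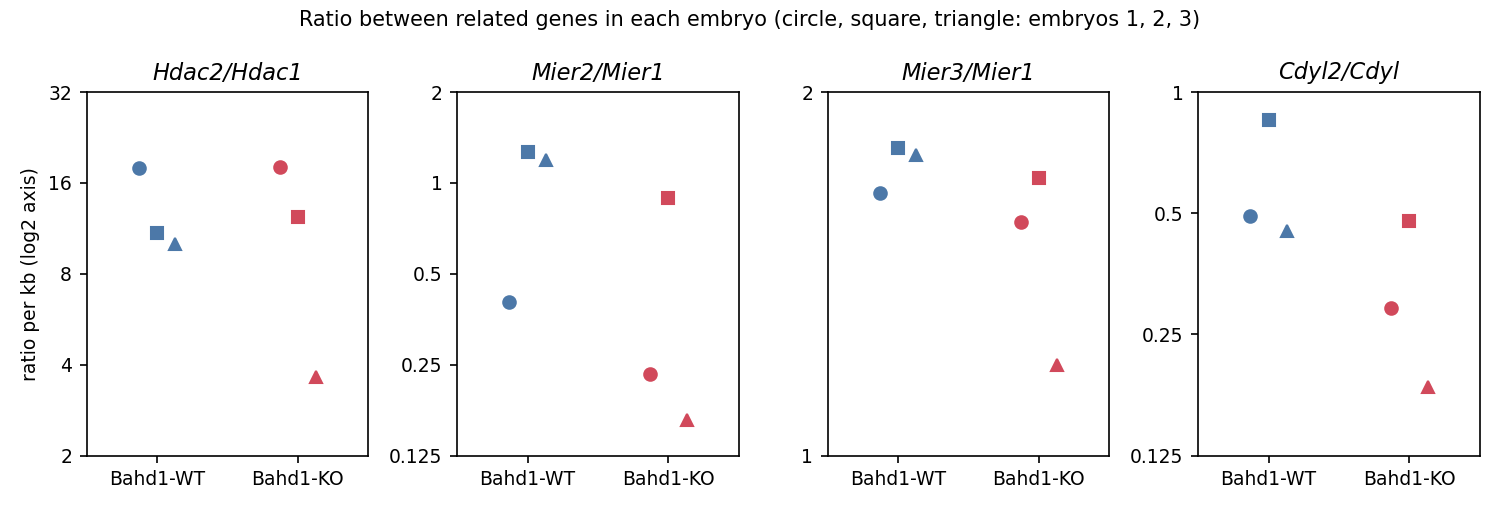
Ratios of paralogous genes per kb of exon length in each embryo, on a log2 axis, by genotype. The genotypes overlap in every panel; Mier2 to Mier1 spans 7.74-fold over the embryos and Mier3 to Mier1 1.51-fold, and Bahd1-KO embryo 3 is lowest for all 4 ratios.

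For 6 of the genes, the protein-coding gene of at least 10 CPM with the most similar profile over the 6 embryos was identified by the root mean square difference of centred log2 levels. For Mier2 this was Znhit1 (difference 0.0443, 60.02% GC) and for Mier1 it was Spcs3 (0.0301, 40.2% GC). Mier3 was closest to Trip4 (0.0259, 42.9% GC) and Hdac2 to Tbpl1 (0.0488, 44.0% GC). The nearest genes to Hdac1 (Smim11, 0.0825, 55.5% GC against 49.95% for Hdac1) and Cdyl (Tpm4, 0.0667, 45.9% GC against 50.9% for Cdyl) were further away. All these likenesses are over 6 embryos that include Bahd1-KO embryo 3.

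Other genes of the pathway were read from lists. Of 8 genes for further BAHD1 partners, 0 passed the adjusted threshold in edgeR, against 0.00404% of all genes. In Bahd1-KO 1 was higher and 7 were lower, with a list median of -0.24 on the log2 scale, beside 13301 higher and 11438 lower and a median of 0.06 over all genes tested. With Bahd1-KO embryo 3 left out the list had 2 higher and 6 lower (median -0.10), and with scaling by total counts 0 higher and 8 lower (median -0.37). After the GC correction it again had 1 higher and 7 lower (median -0.20), beside a median of 0.12 over all genes tested. Ehmt2, which encodes the histone methyltransferase G9a, was at -0.85 (SE 0.499, edgeR adjusted p 0.696), and Trim28, which encodes the corepressor KAP1, at -0.84 (SE 0.458, edgeR adjusted p 0.696). Both are GC-rich, at 60.8 and 59.6%, and were at -0.21 and -0.20 after the GC correction. Setdb1 (-0.23) and Suv39h1 (-0.40), genes of histone H3 methyltransferases, the HP1 genes Cbx1 (0.08), Cbx3 (-0.25) and Cbx5 (-0.06), and Mbd1 (-0.14), a reader of methylated DNA, did not pass the test.

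A further list held the scaffolds with which the MIER proteins share HDAC1 and HDAC2. Of 11 genes, 0 passed, 5 were higher and 6 lower, with a median of -0.25. Without Bahd1-KO embryo 3, 1 was higher and 10 lower (median -0.18), and after the GC correction 6 were higher and 5 lower (median 0.02). With scaling by total counts 1 was higher and 10 lower, a scaling under which 10425 of all genes were higher and 14314 lower. Rcor2, a CoREST scaffold, had the lowest value, -1.03 (SE 0.741, edgeR adjusted p 0.696), and -0.36 after GC correction, with 61.6% GC. Sin3b (-0.68) and Mta1 (-0.60), of the SIN3 and NuRD complexes, came next, while Sin3a (0.02), Mta3 (0.07), Rcor1 (0.13) and Rcor3 (0.12) lay near 0. The MIDEAS gene, listed as Elmsan1, was at 0.42 in all embryos and -0.16 without Bahd1-KO embryo 3. The other class I deacetylases, Hdac3 (-0.45, SE 0.3203) and Hdac8 (0.21, SE 0.280), did not pass the test either. At an unadjusted p under 0.05, 0 genes of these lists were found, against 4.67% of all genes.

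**Figure D5:**
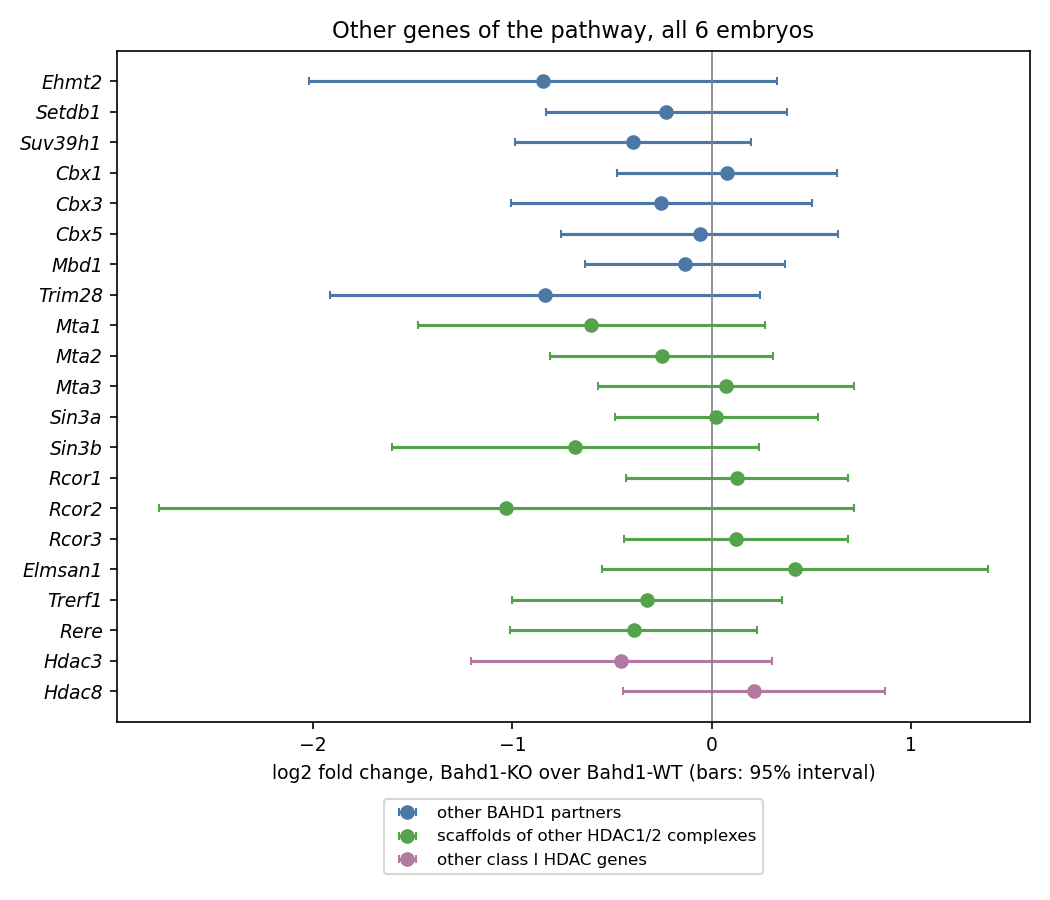
Log2 fold change, Bahd1-KO over Bahd1-WT, of the other pathway genes in all 6 embryos, with its 95% interval from edgeR and a colour for each list. Every interval spans 0, and Rcor2 (-1.03), Ehmt2 (-0.85) and Trim28 (-0.84) lie furthest to the left.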

How the data were processed

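Bulk RNA-seq of 6 embryonic brains was analysed (3 Bahd1-KO, 3 Bahd1-WT, grouped and numbered by sample titles). The deposited values were raw read counts per gene. According to the methods of the study and the submitters' processing notes, the authors built stranded poly(A) libraries, sequenced them in technical runs held as 1 column per embryo (a single-end run of 65 bases and a paired-end run are both described), trimmed with Cutadapt 1.11, aligned to GRCm38 and counted exons per Ensembl 92 gene and strand with featureCounts 1.4.6-p3. STAR 2.5.0a and TopHat2 are both named for the alignment, and which run and aligner made the table is not given in the sources used here.

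The 24739 genes whose counts added up to 10 or more were tested with edgeR 4.0.16 (R 4.3.3), by quasi-likelihood with TMM scaling and no term but genotype, two-sided, with Benjamini-Hochberg adjustment over all of them, a threshold of 0.05 and 95% intervals from the same model. The fit was tested on simulated data with a smaller spread than that of these embryos, which says nothing of its power here. Normalised CPM used TMM-scaled library sizes. At 61.7 to 91.8 × 1e6 counts per library, counting error was small beside the spread between embryos, except for Cdyl2 with 104 to 325 counts. Intervals cover the spread between these embryos only.

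Exon lengths, GC content of the longest transcript and coding sequences came from GENCODE M21 (GRCm38), which matched 53706 genes, and coding sequences were aligned with MAFFT 7.526. Ratios and orders used exact permutation tests. Alternatives were other filters, other scalings, DESeq2 1.42.0, voom, a replicate block, each embryo left out and 2 choices of length. The GC correction (lowess, span 0.3) and unshared words as length were chosen after seeing the data. The members and lists were chosen with earlier results of these data known. The text names Bahd1, the 7 genes, their closest gene by profile, pseudogene copies and genes of the lists. The closest gene to Cdyl2 is not reported here.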

Additional observations from a re-analysis of the deposited data

How the results depend on the processing

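Over 336 alternative values for 20 results under 25 settings, 0 of the 7 genes were called in any of the 21 alternative fits. The number of all genes called, 1 in edgeR on all embryos, was 0 with at least 10 counts in every embryo, a filter that removes Bahd1 itself (452 at an unadjusted p under 0.05), 8 with DESeq2, 6 with voom with quality weights, and 0 to 4 with 1 embryo left out, 4 without Bahd1-KO embryo 3 and 0 without any other. Where Bahd1 lost its call, its log2 fold change stayed between -8.78 and -7.81. Without Bahd1-KO embryo 3, the number of genes called was 11 with DESeq2 and 6 with the GC correction. The log2 fold change of Hdac2 turned with upper-quartile factors (0.0032), voom (0.31), without Bahd1-KO embryo 3 (-0.39 to 0.19 with 1 embryo left out), and without it in DESeq2 (0.19) or with the GC correction (0.0016). That of Hdac1 turned with voom (-0.034), without Bahd1-KO embryo 3 (-0.079 to 0.48 with 1 embryo left out), and without it in DESeq2 (-0.083) or with the GC correction (-0.019). With the GC correction Mier3 was at -0.0029 (-0.041 without Bahd1-KO embryo 3) and Cdyl2 at 0.22 (-0.24 without Bahd1-KO embryo 3). The log2 difference of the Hdac2 to Hdac1 ratio was -0.90 to 0.26 with 1 embryo left out and 0.26 without Bahd1-KO embryo 3. Mier1, Mier2 and Cdyl kept their direction in all alternatives run, within 0.02 to 0.62, -1.58 to -0.11 and 0.08 to 1.18, and the lowest adjusted p was 0.236, for Mier2. In the order of levels, 0 of 6 neighbouring pairs passed 0.05, and 4 passed with unshared words as length, which assumes that shared reads were not counted. Pairs with the same order in every embryo numbered 2, and 4 with unshared words or in the Bahd1-WT embryos alone. The causes of these changes were not tested. Tests of the order with 1 embryo left out were not run, since 5 embryos cannot reach 0.05.

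Embryos with the same replicate number correlated in their deviations from the group means by 0.308, 0.371 and -0.128. Those with different numbers correlated by -0.538 to 0.409. Because the litters were not given, the numbers were not taken to pair embryos. With the replicate block, the number of genes called was 0 (517 at an unadjusted p under 0.05), 0 also with the GC correction (373), and 16 without Bahd1-KO embryo 3 (2171). In the fit without Bahd1-KO embryo 3, Mier2 and Cdyl2 were among those 2171 genes, at log2 fold changes of -0.44 and -0.62. Log2 fold changes that turned under the block were those of Hdac2 without Bahd1-KO embryo 3 (0.22) and, with the GC correction, of Mier3 (-0.0031) and Cdyl2 (0.14).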
